A study of Gallus gallus with 18 samples.

Results

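The comparison was between the HH13-14 and HH15-16 stages of the chick trigeminal ganglion, the first step of a series that went on to HH17-18. HH stands for Hamburger and Hamilton, whose staging of the chick embryo goes by its outward form. The members were chosen by stage label and made up 12 of 18 RNA-seq libraries, the lane 7 and lane 8 runs of 6 of 9 pools. The counts of both runs were summed, which left 3 pools at HH13-14 and 3 pools at HH15-16. Each pool was total RNA of pooled ganglia from wildtype embryos, with no treatment named, and poly(A)-enriched libraries were made from it. The labels call the pools biological replicates. They do not say how many ganglia went into a pool or whether pools shared an incubation, so the spread between pools may include less than the spread between embryos. Of 30108 genes in the deposited table, 17724 had enough counts to be tested. The 3 pools of HH17-18 entered the estimate of spread and are given only as later values.

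The trigeminal ganglion is the sensory ganglion of the face. It is assembled from neural crest cells that leave the midbrain and anterior hindbrain and from placode cells that leave the surface ectoderm. In the chick the placode cells give the first neurons, while crest cells remain proliferating precursors for longer and later give neurons and all of the glia. The dissected tissue can also hold mesenchyme, vessels, blood, surface ectoderm and pieces of neural tube. In a bulk sample, fewer cells of a type and less RNA per cell cannot be told apart.

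The 6 pools held 55120284 to 68083147 counts, in which genes of the ganglion were present throughout. The placode factor PAX3, for example, lay at 80.0 to 106 CPM, counts relative to library size scaled by the trimmed mean of M-values, in the 6 pools. The neuronal tubulin TUBB3 lay at 688 to 924 CPM. The biological coefficient of variation was 12.3% between pools of HH13-14 and 24.7% between pools of HH15-16. Correlations of log2 CPM between pools of the 2 stages, 0.980 to 0.988, overlapped those within HH15-16, 0.976 to 0.986.

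Replicate 1 of HH15-16 stood apart from the other pools. In this pool 822 genes were more than 2-fold above the mean of the other 2 pools of its stage, and 952 genes were more than 2-fold below it. In the other 8 pools these counts ran from 338 to 614 and from 377 to 724. The genes that were high included factors of the optic vesicle, the outgrowth of the forebrain that forms the retina. SIX6 was at 24.2 CPM in this pool, and at 0.463 and 0.928 CPM in replicates 2 and 3. LHX2 was at 32.7 CPM there against 0.780 and 2.47 CPM, and RAX at 8.45 CPM against 0.347 and 0.554 CPM. At HH13-14 these genes did not exceed 0.780, 2.71 and 0.567 CPM. The 15 optic vesicle genes tested, a list written after this pool had been seen, summed to 466 CPM in it, against 201 and 177 CPM in the other pools of HH15-16 and 203 to 227 CPM at HH13-14.

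Several genes of the ganglion itself were low in the same pool, though not all. SOX10, which marks neural crest and glia, was at 69.6 CPM there, against 140 and 236 CPM in replicates 2 and 3 and 166 to 237 CPM at HH13-14. FABP7, of the glial list, was instead at 242 CPM in replicate 1, against 115 to 141 CPM in the other pools of the 2 stages. PAX3 was at 83.5 CPM there, against 80.0 CPM in replicate 3, and TUBB3 at 700 CPM, against 688 CPM in replicate 2. Neural crest, placode, neuronal transcription factor, head mesenchyme, muscle and endothelial lists all had their lowest median of the 6 pools in replicate 1. The neural tube list had its highest median there. Replicate 3 of HH15-16 lay on the other side along the first principal component, the axis of largest variation between the 6 pools. Replicate 1 was at 24.9 on it and replicate 3 at -23.6, with the remaining pools at -6.32 to 7.97. Values without replicate 1 are given beside many of the results and are not taken as better estimates. Those without other pools are given where they moved a value or a count most.

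**Figure D1:**
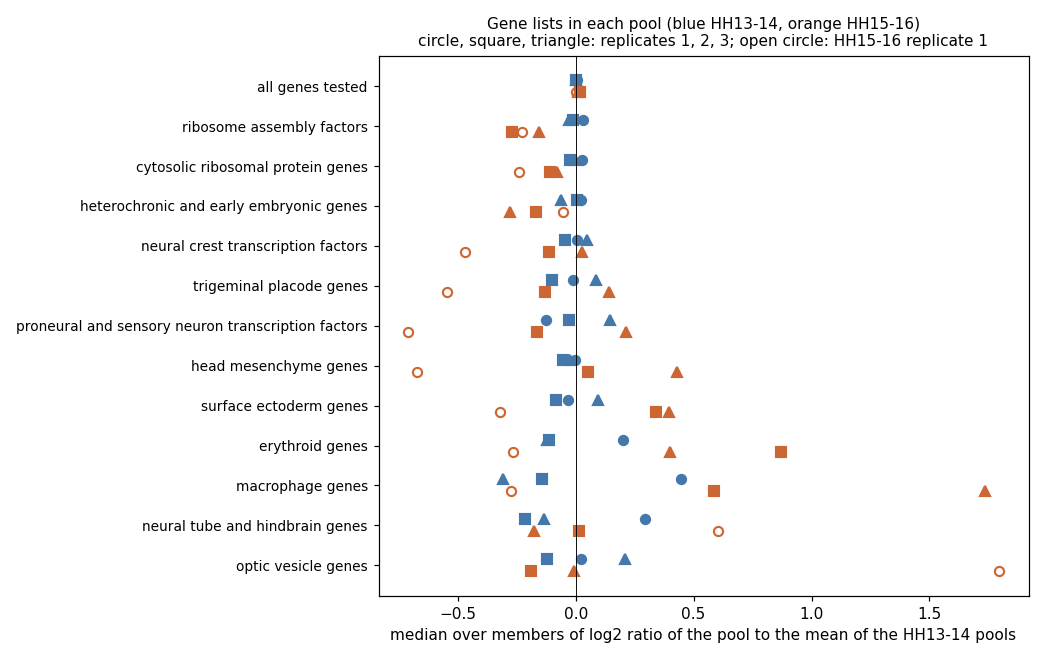
Median over the members of 12 gene lists, and over all genes tested, of the log2 ratio of each pool to the mean of the HH13-14 pools (horizontal axis). Ribosome lists lie below 0 in all 3 pools of HH15-16 (orange), whereas in replicate 1 (open circle) the optic vesicle list lies at 1.80 and the head mesenchyme list at -0.67.

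At a Benjamini-Hochberg adjusted p under 0.05, edgeR's quasi-likelihood test called 0 genes higher and 0 genes lower at HH15-16. At an unadjusted p under 0.05 it gave 938 genes higher, 5.29% of those tested, and 858 lower, 4.84%. All 3 pools of HH15-16 lay above all 3 of HH13-14 for 1424 genes (8.03%) and below them for 1524 (8.60%). These 4 percentages are the background against which members of a gene list are read below. They hold for the fit of all pools. When a pool of the 2 stages was left out, the shares at an unadjusted p under 0.05 moved. They ran from 2.62% to 6.54% for genes lower and from 3.37% to 6.82% for genes higher. Counts of list members from such fits are to be read against those shares. The median log2 fold change of all genes was 0.02, and the quartiles were -0.11 and 0.22. A log2 fold change below 0 was found in 45.4% of all genes tested. Limma's voom with sample weights called 0 higher and 2 lower, 0.0113%. DESeq2, which applied its own filter and size factors, called 58 genes higher, 0.341% of 17021, and 45 lower, 0.264%. Of the 103 genes it called, 101 had pools of the 2 stages that did not overlap, a property of the same counts. Of the 58 higher, 27 had a mean under 5 CPM at HH15-16 and 22 had no symbol. Of the 45 lower, 4 had a mean under 5 CPM at HH13-14 and 5 had no symbol. The genes named below are mainly those with the smallest edgeR p-values or the largest folds among genes whose pools did not overlap. Their edgeR adjusted p-values were 0.0617 for LIN28A and RRS1 and 0.405 to 0.423 for the other 29 genes named by the rule. DESeq2 called 29 of the 31 and gave TRPM1 no adjusted p. The 31 genes were picked from the same counts, so these calls are no independent support. For them the lack of overlap between stages was a condition of the rule and not a result. Where one of them belongs to a gene list, it is in all counts of that list, which are no independent support for it.

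**Figure D2:**
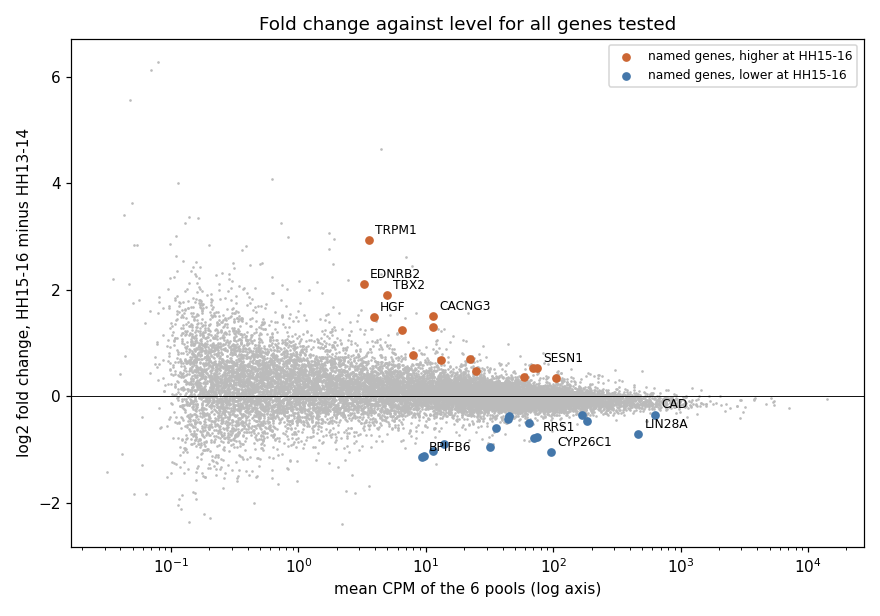
Log2 fold change of HH15-16 minus HH13-14 (vertical axis) against the mean CPM of the 6 pools (horizontal log axis) for each of the 17724 genes tested, with the genes named by the rule coloured. The named genes that were lower include abundant transcripts such as LIN28A and CAD, and the highest fold of a named gene is 2.93 for TRPM1.

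LIN28A had the smallest p-value. It encodes an RNA-binding protein that blocks maturation of let-7 microRNAs and is lost as embryonic cells mature. The gene lies on chromosome 23 from 549150 to 560450 (GRCg7b). Its level was 587, 574 and 572 CPM in the 3 pools of HH13-14 and 334, 330 and 392 CPM in those of HH15-16. The means were 577 ± 8.30 and 352 ± 34.8 CPM (SD, n = 3). The stages did not overlap, and the highest pool of HH15-16 was far below the lowest of HH13-14. The log2 fold change was -0.71 (SE 0.08, adjusted p 0.0617 in edgeR), and DESeq2 gave an adjusted p of 4.53e-08. Without HH15-16 replicate 1 it was -0.69, and the pools of HH17-18 were lower again, at 184, 187 and 162 CPM.

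Most genes listed for the early embryonic programme lay in the same direction. LIN28A is itself a member of this list and is in all its counts, which are therefore no independent support for it. Of 15 heterochronic and early embryonic genes tested, 14 had a log2 fold change below 0, with a median of -0.18 against 0.02 for all genes. Of the 15, 5 were lower (33.3%) and 0 higher at an unadjusted p under 0.05, against backgrounds of 4.84% and 5.29%. In 4 genes, against a background of 8.60%, the pools of HH15-16 were all lower. DESeq2, which called 0.264% of all genes lower, called 2 of the 15, LIN28A and NR6A1. NR6A1, the orphan nuclear receptor GCNF that represses pluripotency genes, was at 197, 175 and 170 CPM at HH13-14 and at 146, 120 and 112 CPM at HH15-16. These pools did not overlap, and the log2 fold change was -0.52 (SE 0.11, adjusted p 0.405 in edgeR, DESeq2 adjusted p 0.0298). TRIM71, an RNA-binding ubiquitin ligase and a target of let-7, was at 116, 142 and 129 CPM and then at 107, 79.4 and 102 CPM, which did not overlap. Its log2 fold change was -0.43 (SE 0.14, adjusted p 0.434 in edgeR). LIN28B and the DNA methyltransferase DNMT3A both had log2 fold changes of -0.26 and pools that overlapped. The summed level of the 15 genes was 5662 to 5984 CPM at HH13-14 and 4841 to 5312 CPM at HH15-16. Without HH15-16 replicate 1 the median stayed at -0.18, with 15 of 15 genes below 0. The count at an unadjusted p under 0.05 was 3 without HH13-14 replicate 2 and 2 without HH15-16 replicate 2.

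**Figure D3:**
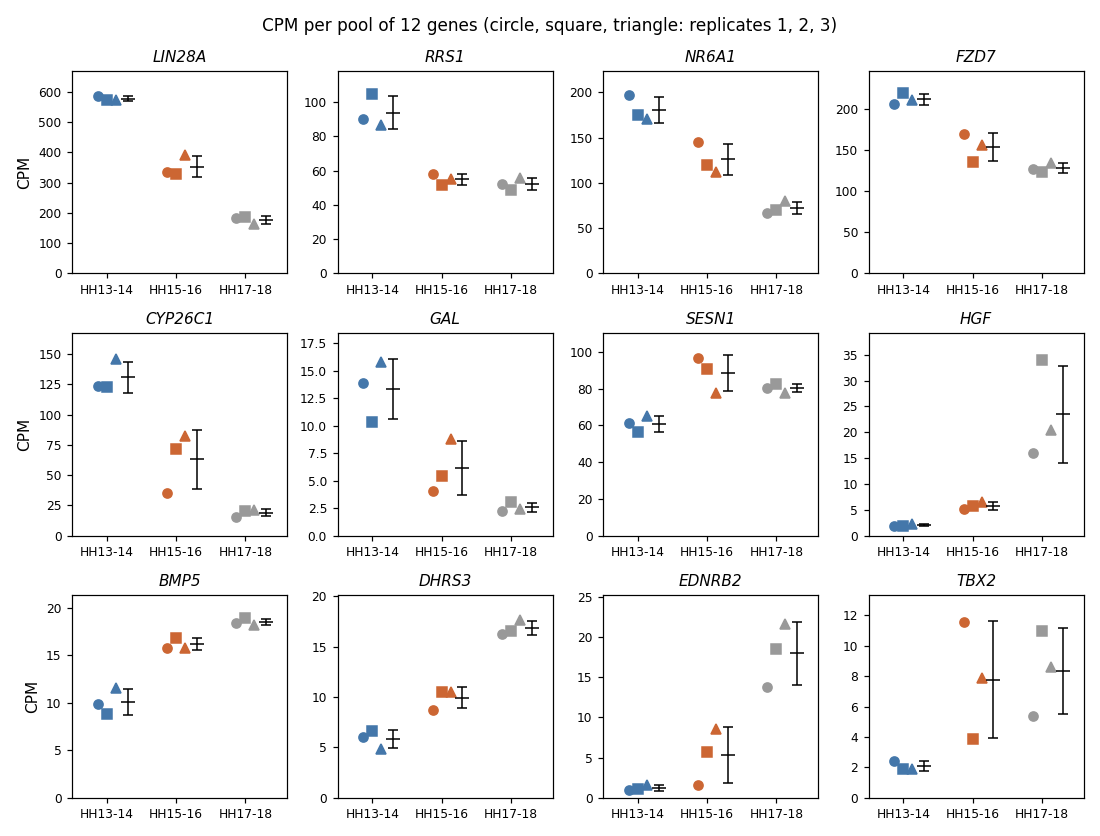
CPM (vertical axes from 0) of 12 genes in each pool of HH13-14 (blue), HH15-16 (orange) and HH17-18 (grey), with circles, squares and triangles for replicates 1, 2 and 3 and bars for the mean and SD of 3 pools. The stages HH13-14 and HH15-16 are separate for each gene, which the naming rule required of all of them except NR6A1. TBX2, EDNRB2 and CYP26C1 have wide spreads at HH15-16.

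Genes for making ribosomes lay on the lower side in nearly all members tested. RRS1, which brings the 5S ribonucleoprotein into the large subunit, lies on chromosome 2 from 114785343 to 114786573. It was at 90.1, 105 and 86.8 CPM at HH13-14 and at 58.3, 51.5 and 55.1 CPM at HH15-16, so that the stages were well apart. The fold change was, on the log2 scale, -0.77 (SE 0.09, adjusted p 0.0617 in edgeR, DESeq2 adjusted p 4.53e-08) and -0.83 without HH15-16 replicate 1. At HH17-18 RRS1 was at 49.0 to 55.5 CPM, within the range of HH15-16 or just under it. IMP3, a U3 small nucleolar ribonucleoprotein needed for processing of the small subunit RNA, was at 42.8, 45.2 and 39.4 CPM and then at 25.4, 27.6 and 31.2 CPM. The pools did not overlap, with a log2 fold change of -0.60 (SE 0.11, adjusted p 0.405 in edgeR, DESeq2 adjusted p 0.0017).

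A list of ribosome assembly factors, written after RRS1 and IMP3 had been seen and hence no independent evidence, had 81 genes tested. Of these, 80 had a log2 fold change below 0, against 45.4% of all genes. An unadjusted p under 0.05 was reached by 41, all 41 lower, against a background of 4.84%. In 51 of 81 the pools of HH15-16 were all below those of HH13-14, against a background of 8.60%. The median was -0.19, and it was -0.21 without HH15-16 replicate 1, with 77 genes below 0 and 42 at an unadjusted p under 0.05. Without HH13-14 replicate 2 that count was 27. In these fits 5.70% and 2.62% of all genes were lower at that limit. Over all alternatives the median ran from -0.22 to -0.18. DESeq2 called 6 of the 81, namely RRS1, IMP3, BOP1, NOB1, NIP7 and NOM1, where it called 0.264% of all genes lower. BOP1, part of the PeBoW complex of the large subunit, was at 215, 215 and 189 CPM at HH13-14 and at 158, 166 and 170 CPM at HH15-16. NOB1, the endonuclease that completes small subunit RNA, was at 102, 105 and 95.0 CPM and then at 81.5, 74.4 and 83.4 CPM. The pools of these 2 genes did not overlap, and both had a log2 fold change of -0.33 (SE 0.07, adjusted p 0.417 in edgeR for each).

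Of 67 cytosolic ribosomal protein genes tested, 65 had a log2 fold change below 0, and 35 had an unadjusted p under 0.05, all 35 lower, against a background of 4.84%. In 47 the pools of HH15-16 were all below those of HH13-14, against a background of 8.60%. At an adjusted p under 0.05 DESeq2 called 0 of the 67, where it called 0.264% of all genes lower. EdgeR called 0 of all genes tested. RPL23A was at 544, 518 and 531 CPM at HH13-14 and at 441, 444 and 482 CPM at HH15-16, which did not overlap. On the log2 scale its fold change was -0.22 (SE 0.06, adjusted p 0.417 in edgeR). RPS28 was at 253, 248 and 228 CPM and then at 170, 195 and 198 CPM, also without overlap, with a log2 fold change of -0.37 (SE 0.10, adjusted p 0.417 in edgeR).

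The median over the 67 genes was -0.14, and -0.10 without HH15-16 replicate 1, when 65 genes were below 0 and 16 had an unadjusted p under 0.05. That last count was 11, 19 and 20 without replicates 1, 2 and 3 of HH13-14. In these fits, in that order, 5.70%, 3.09%, 2.62% and 3.27% of all genes were lower at that limit. Over all alternatives, other scalings included, the median ran from -0.18 to -0.09. In replicate 1 the median of the list against HH13-14 was -0.24, and in replicates 2 and 3 it was -0.11 and -0.08. The genes together took 45065 to 47148 CPM at HH13-14 and 39326 to 44025 CPM at HH15-16. The 2 members above 0 were RPL3L and RPS27L, paralogs of RPL3 and RPS27.

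Other genes of growth and mitochondrial supply were named by the rule on the same side. CAD, which starts pyrimidine synthesis, was at 724, 737 and 671 CPM at HH13-14 and at 551, 567 and 561 CPM at HH15-16. There was no overlap of the stages, with a log2 fold change of -0.34 (SE 0.07, adjusted p 0.405 in edgeR, DESeq2 adjusted p 0.0258). PPRC1, a coactivator of the PGC-1 family that drives mitochondrial genes, had values of 191, 184 and 190 CPM and then 159, 140 and 143 CPM. The fitted log2 fold change was -0.35 (SE 0.07). BOLA3, which helps to place iron-sulfur clusters in mitochondrial enzymes, was at 52.6, 49.2 and 51.5 CPM and then at 38.2, 41.0 and 38.9 CPM. This gave a log2 fold change of -0.38 (SE 0.08). MOGS, the glucosidase that trims N-glycans in the endoplasmic reticulum, had a log2 fold change of -0.43 (SE 0.09). The pools of all of these genes were apart.

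Of 66 mitochondrial respiratory chain genes tested, 55 were below 0 with a median of -0.09. An unadjusted p under 0.05 was reached by 8 (12.1%), all lower, against a background of 4.84%. DESeq2, which called 0.264% of all genes lower, called 1 of the 66, COX5B, a subunit of cytochrome c oxidase. It was at 50.5, 55.2 and 50.7 CPM at HH13-14 and at 24.2, 39.7 and 31.9 CPM at HH15-16, with a log2 fold change of -0.71 (SE 0.17, adjusted p 0.417 in edgeR, DESeq2 adjusted p 0.0257). Without HH15-16 replicate 1, which had its lowest level, the value was -0.55. Without that pool 3 of the 66 genes had an unadjusted p under 0.05, as did 3 without either of replicates 1 and 2 of HH13-14. There were 4 without HH15-16 replicate 2 and 17 without HH15-16 replicate 3. In these fits, in that order, 5.70%, 3.09%, 2.62%, 3.39% and 6.54% of all genes were lower at that limit. Among 34 cell cycle genes tested, 24 were below 0 with a median of -0.08. Of the 34, 3 were lower (8.82%) and 1 higher (2.94%) at an unadjusted p under 0.05, against backgrounds of 4.84% and 5.29%. That count of lower genes was 0 without either of replicates 1 and 2 of HH13-14. It was 1 without either of replicates 1 and 2 of HH15-16 and 5 without HH15-16 replicate 3. The shares of all genes given above for those fits apply here too. The 22 glycolysis and hypoxia genes tested had a median of 0.05, with 12 above 0 and 10 below. At an unadjusted p under 0.05, 1 was lower (4.55%) and 1 higher (4.55%), against backgrounds of 4.84% and 5.29%. The lower one was LDHB, a lactate dehydrogenase subunit. Its log2 fold change was -0.39 (SE 0.11, adjusted p 0.417 in edgeR), and its pools did not overlap. The higher one was ENO2, the neuronal enolase, at 4.81, 4.69 and 3.14 CPM and then at 15.1, 18.2 and 3.94 CPM, where replicate 3 lay within the range of HH13-14. Its log2 fold change was 1.56, and 1.39 without HH15-16 replicate 1. The median of this list was -0.13 without HH15-16 replicate 2 and 0.14 without replicate 3.

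**Figure D4:**
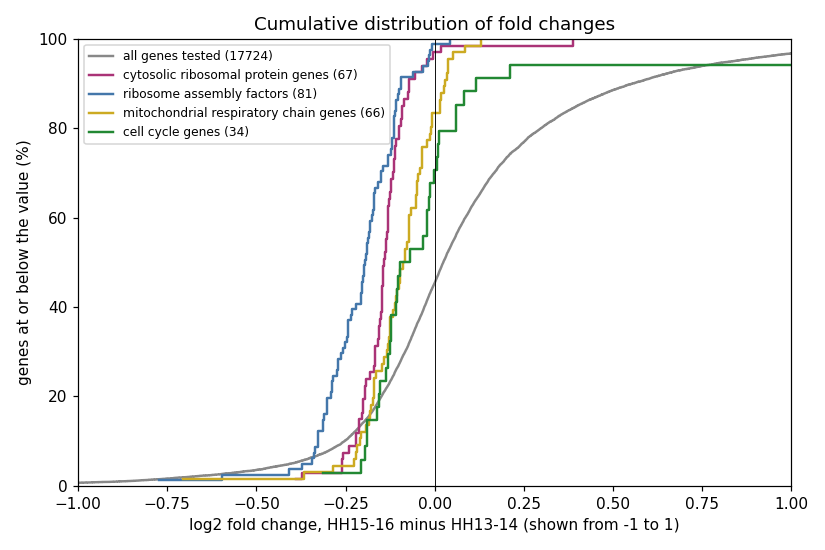
Cumulative share of genes (vertical axis, %) at or below each log2 fold change of HH15-16 minus HH13-14 (horizontal axis, shown from -1 to 1) for all 17724 genes tested and for 4 gene lists. The curves of ribosome assembly factors (median -0.19) and ribosomal proteins (median -0.14) lie to the left of the curve of all genes (median 0.02).

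Genes that set retinoic acid levels were on both sides. Retinoic acid patterns the head and hindbrain and is made by aldehyde dehydrogenases and degraded by CYP26 enzymes. CYP26C1, one of these degrading enzymes, lies on chromosome 6 from 21362453 to 21370584. It was at 123, 123 and 146 CPM at HH13-14 and at 35.5, 71.4 and 82.0 CPM at HH15-16. The stages did not overlap, and replicate 1 was lowest. Its fitted log2 fold change was -1.05 (SE 0.25, adjusted p 0.417 in edgeR, DESeq2 adjusted p 0.0147), and -0.77 without replicate 1. At HH17-18 the gene was lower again, at 15.3 to 21.0 CPM.

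DHRS3, which turns retinaldehyde back into retinol, was on the other side. It lies on chromosome 21 from 5170653 to 5335439. Its level was 6.01, 6.64 and 4.84 CPM at HH13-14 and 8.72, 10.5 and 10.5 CPM at HH15-16, without overlap. The log2 fold change was 0.77 (SE 0.15, adjusted p 0.405 in edgeR, DESeq2 adjusted p 0.000929), and 0.84 without HH15-16 replicate 1. ALDH1A3, a retinaldehyde dehydrogenase of eye, ear and nose, was at 9.83 to 10.5 CPM at HH13-14 and at 24.3, 32.1 and 10.4 CPM at HH15-16. Replicates 1 and 2 were high, and replicate 3 lay within the range of HH13-14. The fold change was, on the log2 scale, 1.14 (SE 0.37, adjusted p 0.434 in edgeR), and 1.06 without replicate 1. Among 16 retinoic acid pathway genes tested, 3 were higher (18.8%) and 2 lower (12.5%) at an unadjusted p under 0.05. The backgrounds were 5.29% and 4.84%. CYP26C1, picked by the rule from the same counts, is a member of this list and is in its counts. The median over the 16 genes was 0.11. It was 0.26 without HH15-16 replicate 1 and 0.07 without replicate 3.

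The rule named COL9A1 and COL9A2, which encode chains of collagen IX, on the lower side. Collagen IX coats collagen fibrils in cartilage, notochord and early epithelia. COL9A2 was at 85.3, 75.9 and 107 CPM at HH13-14 and at 50.1, 48.2 and 56.8 CPM at HH15-16. Its fitted log2 fold change was -0.79 (SE 0.15, adjusted p 0.405 in edgeR, DESeq2 adjusted p 0.00268). COL9A1 was at 41.5, 41.0 and 42.9 CPM and then at 15.6, 17.8 and 31.5 CPM. On the log2 scale its fold change was -0.95 (SE 0.25, adjusted p 0.417 in edgeR, DESeq2 adjusted p 0.0345), and -0.77 without HH15-16 replicate 1. In neither gene did the stages overlap. The third chain, COL9A3, had values of 70.0, 69.8 and 86.0 CPM and then 21.3, 40.0 and 65.9 CPM, which also did not overlap. The 30 collagen and matrix genes tested had a median of -0.04. Among them, 6 were lower (20%) and 1 higher (3.33%) at an unadjusted p under 0.05, against backgrounds of 4.84% and 5.29%. Without HH15-16 replicate 1 these counts were 4 lower and 10 higher, with a median of 0.10. The genes lower numbered 3 without HH13-14 replicate 3 or HH15-16 replicate 2 and 9 without HH15-16 replicate 3, and the median was 0.03 without HH13-14 replicate 2.

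FZD7, a receptor for WNT ligands, was at 206, 219 and 210 CPM at HH13-14 and at 170, 136 and 157 CPM at HH15-16. The pools did not overlap, with a log2 fold change of -0.46 (SE 0.08, adjusted p 0.405 in edgeR, DESeq2 adjusted p 0.0099) and -0.54 without HH15-16 replicate 1. Among 34 WNT pathway genes tested, 4 (11.8%) had pools of HH15-16 all below those of HH13-14 and 1 (2.94%) all above. The backgrounds were 8.60% and 8.03%. Of the 34, 2 were lower (5.88%) and 0 higher at an unadjusted p under 0.05, against backgrounds of 4.84% and 5.29%. The neuropeptide galanin gene, GAL, was at 13.8, 10.4 and 15.8 CPM and then at 4.06, 5.46 and 8.82 CPM. These also did not overlap, and the log2 fold change was -1.12 (SE 0.28, adjusted p 0.417 in edgeR, DESeq2 adjusted p 0.0156). LMO2, an adaptor protein of blood and endothelial transcription complexes, was at 69.0, 77.4 and 82.3 CPM and then at 48.5, 54.8 and 58.0 CPM. The fitted log2 fold change was -0.50 (SE 0.10, adjusted p 0.405 in edgeR, DESeq2 adjusted p 0.00491).

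LMO2 is itself a member of the endothelial list and had its lowest log2 fold change. With LMO2 counted, 17 of 18 endothelial genes tested were below 0, against 45.4% of all genes, with a median of -0.18. Without HH15-16 replicate 1, LMO2 was at -0.44 and the endothelial median at -0.01, against -0.30 and -0.32 without replicates 2 and 3. The endothelial genes summed to 814 to 888 CPM at HH13-14 and to 559, 815 and 805 CPM at HH15-16, and whether a smaller share of vessels accounts for LMO2 was not tested. The other genes named as lower were BPIFB6, FAM163B and SELENOP2. BPIFB6, a lipid-binding protein of the BPI-fold family, was at 12.1, 10.1 and 16.5 CPM and then at 5.01, 6.69 and 5.78 CPM. This gave a log2 fold change of -1.15 (SE 0.27), the largest decrease among the named genes, and at HH17-18 it was at 0.582 to 1.21 CPM. FAM163B had a log2 fold change of -1.03 (SE 0.19) and SELENOP2, a selenoprotein P relative, one of -0.89 (SE 0.18). The pools of these 3 genes did not overlap, and DESeq2 called all 3, with adjusted p-values of 0.00409, 0.000106 and 0.00106.

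The genes named on the higher side included secreted signals. HGF, the ligand of the MET receptor and a guidance and survival factor for motor and sensory axons, lies on chromosome 1 from 10859559 to 10922316. It was at 1.90, 1.91 and 2.32 CPM at HH13-14 and at 5.11, 5.65 and 6.50 CPM at HH15-16, far apart. The log2 fold change was 1.49 (SE 0.26, adjusted p 0.405 in edgeR, DESeq2 adjusted p 4.86e-05), and 1.56 without HH15-16 replicate 1. At HH17-18 it was higher again, at 15.9, 34.0 and 20.5 CPM. BMP5, a bone morphogenetic protein, lies on chromosome 3 from 87041515 to 87097393. It was at 9.91, 8.79 and 11.5 CPM and then at 15.8, 16.9 and 15.8 CPM, without overlap. Its log2 fold change was 0.68 (SE 0.13, adjusted p 0.405 in edgeR, DESeq2 adjusted p 0.000106).

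LIX1, a gene first described from the chick limb bud, was at 4.05, 3.08 and 4.46 CPM at HH13-14 and at 8.38, 9.16 and 9.98 CPM at HH15-16. There was no overlap of the stages, with a log2 fold change of 1.25 (SE 0.23, adjusted p 0.405 in edgeR, DESeq2 adjusted p 0.000106). SESN1, a sestrin that restrains the growth regulator mTORC1, had the smallest p-value of the named genes that were higher. It was at 61.5, 56.3 and 65.0 CPM and then at 96.8, 90.7 and 77.8 CPM. The pools were apart, with a log2 fold change of 0.54 (SE 0.09, adjusted p 0.405 in edgeR, DESeq2 adjusted p 0.00302). At HH17-18 its level was within the range of HH15-16, at 77.8 to 82.2 CPM.

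Genes of the nerve cell surface and synapse were among those named. CACNG3, an auxiliary subunit of AMPA glutamate receptors, was at 5.14, 6.39 and 6.41 CPM at HH13-14 and at 23.4, 16.4 and 10.8 CPM at HH15-16. The stages did not overlap, but the pools of HH15-16 were uneven and replicate 1 was highest. The fold change was, on the log2 scale, 1.5 (SE 0.32, adjusted p 0.417 in edgeR, DESeq2 adjusted p 0.00181), and 1.18 without that pool. CNTNAP1, the axonal protein of the junction beside the node of Ranvier, was at 20.7, 20.6 and 20.5 CPM and then at 31.2, 28.6 and 26.6 CPM. On the log2 scale its fold change was 0.48 (SE 0.11, adjusted p 0.417 in edgeR, DESeq2 adjusted p 0.0276). SNCAIP, the alpha-synuclein partner synphilin-1, was at 17.6, 14.8 and 18.1 CPM and then at 31.9, 26.0 and 24.0 CPM. The fitted log2 fold change was 0.70 (SE 0.16, adjusted p 0.417 in edgeR). In both of these genes too the stages did not overlap.

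EDNRB2 encodes an endothelin receptor that in birds marks melanoblasts, the crest-derived pigment precursors. It lies on chromosome 4 from 11117090 to 11128197. Its level was 0.943, 1.12 and 1.61 CPM at HH13-14 and 1.64, 5.64 and 8.60 CPM at HH15-16. The stages barely separated, since replicate 1 of HH15-16 was just above the highest pool of HH13-14. Its fitted log2 fold change was 2.11 (SE 0.49, adjusted p 0.417 in edgeR, DESeq2 adjusted p 0.0468). Without HH15-16 replicate 1 it was 2.53, and edgeR then called it with an adjusted p of 0.0366. At HH17-18 it was at 13.8, 18.5 and 21.6 CPM. Of 7 melanoblast genes tested, EDNRB2 was the 1 gene at an unadjusted p under 0.05 (14.3%, against a background of 5.29%). It had been picked by the rule from the same counts, so this is no separate support. The pigment enzyme gene DCT stayed between 0.564 and 0.869 CPM in the 6 pools, and the pigment cell factor MITF was at 19.1 to 19.7 CPM at HH13-14 and at 33.7, 18.8 and 19.3 CPM at HH15-16. PMEL, which forms the fibrils of pigment granules, was at 12.9, 13.3 and 13 CPM and then at 12, 12.6 and 8.60 CPM. Its pools did not overlap, with HH15-16 below HH13-14 and a log2 fold change of -0.24 (SE 0.17, adjusted p 0.665 in edgeR).

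TRPM1, GPR157 and TBX2 were highest in HH15-16 replicate 1. TRPM1, a cation channel of retina and pigment cells, was at 0.533, 1.29 and 0.656 CPM at HH13-14 and at 15.5, 1.76 and 1.53 CPM at HH15-16. Replicate 1 was far above all other pools, and the remaining pools of HH15-16 were just above those of HH13-14. The log2 fold change was 2.93 (SE 0.85, adjusted p 0.423 in edgeR) and 1.00 without that pool. GPR157, an orphan G protein-coupled receptor, was at 5.98, 5.52 and 8.24 CPM and then at 25.7, 13.2 and 9.41 CPM, without overlap. This gave a log2 fold change of 1.29 (SE 0.34, adjusted p 0.417 in edgeR), and 0.77 without replicate 1. TBX2, a T-box repressor expressed in the dorsal retina among other tissues, was at 2.43, 1.91 and 1.91 CPM and then at 11.6, 3.84 and 7.90 CPM. The pools did not overlap, with a log2 fold change of 1.89 (SE 0.38, adjusted p 0.405 in edgeR, DESeq2 adjusted p 0.000272), and 1.48 without replicate 1. The other named genes that were higher, MARF1, ZMYND11 and SGPL1, had log2 fold changes of 0.53, 0.35 and 0.34, and 0.60, 0.31 and 0.34 without replicate 1. MARF1 is an RNA-binding regulator of transcript stability, ZMYND11 a reader of histone H3.3 and SGPL1 the lyase of sphingosine-1-phosphate.

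Against the mean of HH13-14, the medians of the placode, neural crest, neuronal transcription factor and glial lists were -0.71 to -0.47 (log2) in HH15-16 replicate 1 and 0.03 to 0.21 in replicate 3. For the trigeminal placode, 16 genes tested had a median of -0.17, and -0.04 and -0.21 without replicates 1 and 3 of HH15-16. Of the 16, 3 were lower (18.8%) and 1 higher (6.25%) at an unadjusted p under 0.05, against backgrounds of 4.84% and 5.29%. DESeq2, which called 0.264% of all genes lower, called 2 of the 16, DLX5 and DLX6. These are homeobox genes of the border between neural plate and ectoderm and of the branchial arches. DLX5 was at 27.8, 26.5 and 30.0 CPM at HH13-14 and at 11, 16.1 and 20.6 CPM at HH15-16. There was no overlap of the stages, with a log2 fold change of -0.82 (SE 0.21, adjusted p 0.417 in edgeR, DESeq2 adjusted p 0.0298), and -0.63 without replicate 1. DLX6 was at 4.55, 4.06 and 6.11 CPM and then at 2.49, 2.73 and 2.36 CPM, also apart. Its log2 fold change was -0.96 (SE 0.21, adjusted p 0.417 in edgeR, DESeq2 adjusted p 0.00417), and -0.95 without replicate 1. FGFR4, a receptor of the ophthalmic placode, was at 36.0, 33.3 and 40.0 CPM and then at 25.8, 25 and 31.5 CPM, without overlap. On the log2 scale its fold change was -0.41 (SE 0.13, adjusted p 0.427 in edgeR). PAX3 was at 90.5, 102 and 106 CPM and then at 83.5, 88.8 and 80.0 CPM, also lower without overlap. EYA2, a transcriptional coactivator of placode specification, had pools that overlapped and a log2 fold change of -0.26 (SE 0.29), which turned to 0.02 without replicate 1.

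Of 18 neural crest transcription factors tested, 13 were below 0, with a median of -0.15, and -0.09 without HH15-16 replicate 1. Of the 18, 4 were lower (22.2%) and 0 higher at an unadjusted p under 0.05, against backgrounds of 4.84% and 5.29%. Without HH15-16 replicate 3 the median was -0.25, with 7 lower. DESeq2 called 0 of the 18, where it called 0.264% of all genes lower, and edgeR called 0 of all genes tested. FOXD3, an early crest factor, was at 38.7, 41.4 and 51.2 CPM at HH13-14 and at 14.5, 22.2 and 33.8 CPM at HH15-16. ETS1, a factor of cranial crest, was at 128, 146 and 144 CPM and then at 80.5, 91.5 and 117 CPM. The stages did not overlap in either gene, although replicate 1 was lowest in both. The log2 fold changes were -0.90 (SE 0.30, adjusted p 0.434 in edgeR) for FOXD3 and -0.53 (SE 0.14, adjusted p 0.417 in edgeR) for ETS1, and -0.65 and -0.43 without replicate 1. RXRG, a retinoid X receptor of crest and glial precursors, had a log2 fold change of -0.88 (SE 0.26), and -0.62 without replicate 1. SOX10 and TFAP2B had pools that overlapped and log2 fold changes of -0.39 (SE 0.38) and -0.38 (SE 0.25). Without replicate 1 they were at -0.06 and -0.12.

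Among 13 Schwann precursor and glial genes tested the median was -0.17, and 0.04 without HH15-16 replicate 1. Of the 13, 8 had a log2 fold change below 0. An unadjusted p under 0.05 was reached by 2 that were lower (15.4%) and 0 that were higher, against backgrounds of 4.84% and 5.29%. The median was -0.29 without HH15-16 replicate 3, with 5 lower, and -0.08 without HH13-14 replicate 3, with 1 lower, as in the fits without any other pool of the 2 stages.

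For neurons, 25 proneural and sensory neuron transcription factors tested had a median of -0.19, and 0.01 without HH15-16 replicate 1. At an unadjusted p under 0.05, 2 were higher (8%) and 1 lower (4%), against backgrounds of 5.29% and 4.84%. The median was -0.35 without HH15-16 replicate 3, with 4 lower, and -0.05 without HH13-14 replicate 3. NEUROD1, which drives neuronal differentiation, was at 29.4, 34.4 and 63.4 CPM at HH13-14 and at 13.2, 26.2 and 40.7 CPM at HH15-16. ISL1, a LIM homeobox factor of sensory neurons, was at 21.8, 15.6 and 31.8 CPM and then at 8.13, 20.4 and 32.7 CPM. Both overlapped between stages, and in both replicate 3 was the highest pool of each stage. The log2 fold changes were -0.66 (SE 0.47) for NEUROD1 and -0.18 (SE 0.49) for ISL1. NEUROD1 was at -0.35 without HH15-16 replicate 1, and ISL1 turned to 0.19. EBF1, a factor of differentiating neurons, was at 28.4, 42.4 and 37.1 CPM and then at 22.4, 22.3 and 28.9 CPM. It overlapped by a small margin, with a log2 fold change of -0.55 (SE 0.18, adjusted p 0.430 in edgeR). NEUROG1, the proneural gene of the placode, was at 0.700, 0.355 and 0.461 CPM and then at 0.273, 2.14 and 1.86 CPM. Replicates 2 and 3 of HH15-16 were above HH13-14 and replicate 1 was below it, with a log2 fold change of 1.49 (SE 0.61, adjusted p 0.466 in edgeR).

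Of 28 neuronal cytoskeleton and synaptic vesicle genes tested, 22 were above 0, with a median of 0.11. The median was also 0.11 without HH15-16 replicate 1, and without replicate 3 it was 0.02, with 15 above 0 and 13 below. At an unadjusted p under 0.05, 1 was higher and 0 lower, against backgrounds of 5.29% and 4.84%. That gene was MAPT, the axonal tau protein, at 26.8, 21.9 and 22.6 CPM at HH13-14 and at 28.2, 31.4 and 28.0 CPM at HH15-16. Its pools did not overlap, with a log2 fold change of 0.30 (SE 0.12, adjusted p 0.460 in edgeR). Among 15 neurotrophin and GDNF family genes tested the median was 0.07, and it was 0.16 and -0.10 without replicates 1 and 3 of HH15-16. DESeq2, which called 0.341% of all genes higher, called 1 of the 15, NTRK2, the receptor of brain-derived neurotrophic factor. NTRK2 was at 0.822, 0.580 and 0.974 CPM and then at 3.42, 1.84 and 1.27 CPM, without overlap and highest in replicate 1. The fold change was, on the log2 scale, 1.45 (SE 0.39, adjusted p 0.417 in edgeR, DESeq2 adjusted p 0.0345), and 0.96 without that pool.

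The 36 axon guidance genes tested had a median of -0.09. Of these, 2 were lower (5.56%) and 0 higher at an unadjusted p under 0.05, against backgrounds of 4.84% and 5.29%. NRP2, a semaphorin receptor of migrating crest and axons, was at 583, 630 and 651 CPM at HH13-14 and at 390, 404 and 553 CPM at HH15-16. It did not overlap, with a log2 fold change of -0.47 (SE 0.15, adjusted p 0.432 in edgeR), and -0.38 without HH15-16 replicate 1. The 25 neuronal adhesion genes had a median of 0.03, with 1 gene higher (4%) and 0 lower at an unadjusted p under 0.05. These medians were -0.03 and -0.05 without HH15-16 replicate 1, and without replicate 3 they were -0.14 and 0.05.

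The medians of the other signalling lists, against 0.02 for all genes, were -0.01 for 26 BMP and TGF-beta genes, 0.08 for 23 FGF genes, 0.03 for 18 Notch genes, -0.02 for 13 Hedgehog genes and 0.05 for 34 WNT genes. When a pool of either stage was left out, they ran from -0.12 to 0.03 for BMP and TGF-beta, -0.03 to 0.15 for FGF, -0.08 to 0.12 for Notch, -0.11 to 0.06 for Hedgehog and -0.05 to 0.20 for WNT genes. At an unadjusted p under 0.05, 2 BMP and TGF-beta genes were higher (7.69%) and 2 lower (7.69%), against backgrounds of 5.29% and 4.84%. Lower at that limit were 1 FGF gene (4.35%) and 1 Notch gene (5.56%), while 0 Hedgehog genes were lower or higher. NOG, the secreted BMP antagonist noggin, was at 3.39, 3.66 and 2.52 CPM at HH13-14 and at 2.13, 1.53 and 1.32 CPM at HH15-16. GDF10, a ligand of the BMP and TGF-beta list, was at 2.30, 2.00 and 1.82 CPM and then at 3.20, 2.70 and 3.19 CPM. The stages did not overlap in either gene. The log2 fold changes were -0.94 (SE 0.35, adjusted p 0.447 in edgeR) for NOG and 0.57 (SE 0.18, adjusted p 0.432 in edgeR) for GDF10, and NOG was at -1.17 without HH15-16 replicate 1. The 20 immediate early and stress genes tested had a median of -0.14. Of the 20, 2 were lower (10%) and 0 higher at an unadjusted p under 0.05, against backgrounds of 4.84% and 5.29%. The count of lower genes was 7 without HH15-16 replicate 3 and 0 to 1 without another pool of the 2 stages. HSPA8, the constitutive heat shock chaperone, was at 3427, 3129 and 3465 CPM and then at 2114, 2268 and 3154 CPM, overlapping in replicate 3, with a log2 fold change of -0.41, and -0.31 without replicate 1.

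**Figure D5:**
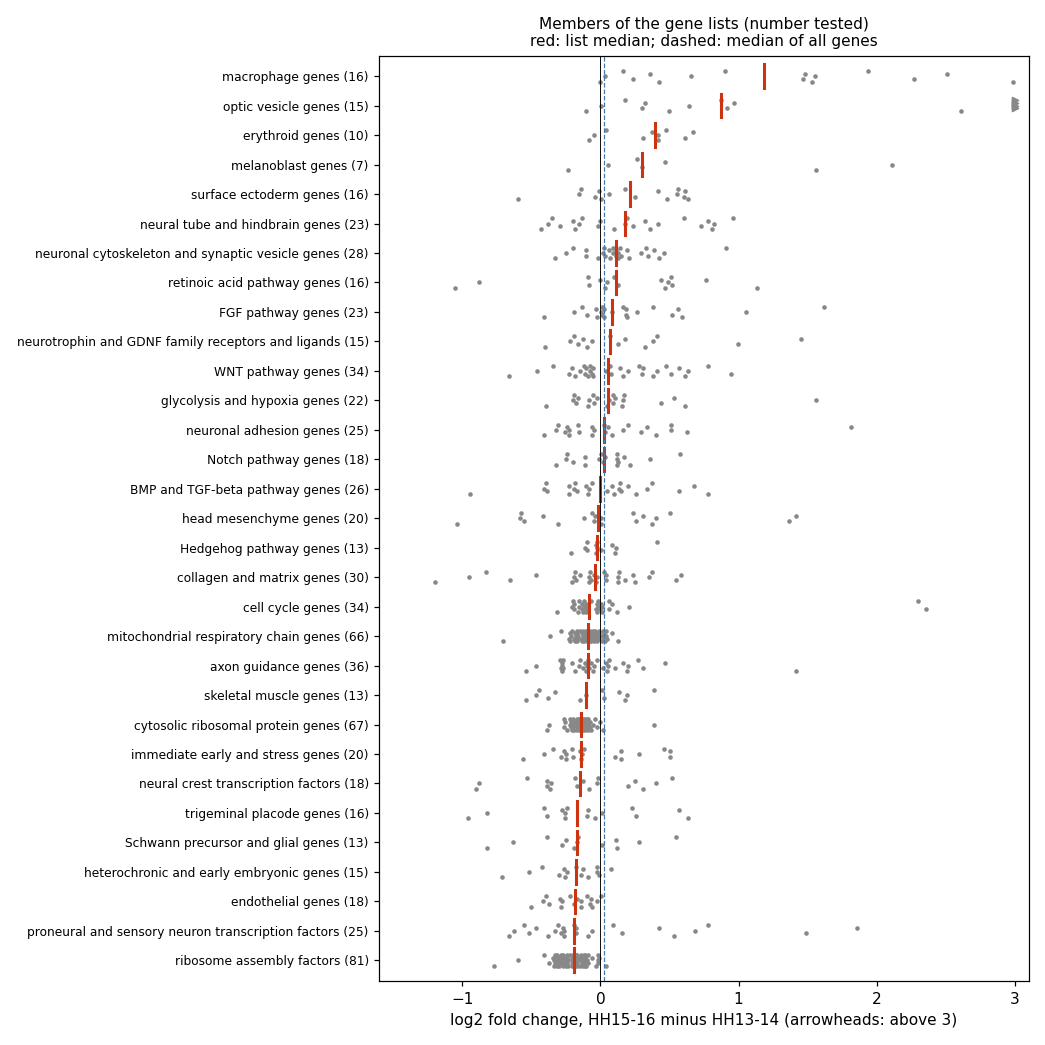
Log2 fold change of HH15-16 minus HH13-14 (horizontal axis, values above 3 as arrowheads) of each tested member of the 31 gene lists, with the number tested in brackets, the list median in red and the median of all genes dashed. Macrophage genes have the highest median, 1.18, and ribosome assembly factors the lowest, -0.19.

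Genes of tissues beside the ganglion differed between the pools of HH15-16. Of 16 macrophage genes tested, 15 were above 0, with a median of 1.18, and 4 were higher at an unadjusted p under 0.05, against a background of 5.29%. SPI1, the master factor of macrophages, was at 0.350, 0.15 and 0.0354 CPM at HH13-14 and at 0.170, 0.752 and 3.47 CPM at HH15-16. CSF1R, the receptor for their growth factor, was at 3.99, 2.34 and 1.70 CPM and then at 2.16, 3.96 and 17.2 CPM. Both overlapped, and replicate 3 of HH15-16 was highest. P2RY13 and PTPRC, a purine receptor and the leukocyte antigen CD45, did not overlap, with log2 fold changes of 1.48 (SE 0.44, adjusted p 0.427 in edgeR) and 0.90 (SE 0.35, adjusted p 0.456 in edgeR). Without HH15-16 replicate 3 the list median was 0.18, with 1 gene at an unadjusted p under 0.05, and without replicate 1 it was 1.41, with 7. That count was 7 without HH13-14 replicate 1, 2 without HH13-14 replicate 2 and 6 without HH15-16 replicate 2.

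Of 10 erythroid genes tested, 8 were above 0, with a median of 0.39, and 0 had an unadjusted p under 0.05. The median was 0.65 without HH15-16 replicate 1, when 6 had one and were higher, against 6.82% of all genes in that fit. It was 0.09 without HH15-16 replicate 2. The globin gene HBZ was at 495, 378 and 369 CPM at HH13-14 and at 357, 804 and 570 CPM at HH15-16, so that replicate 1 was the lowest of the 6 pools and replicates 2 and 3 were the highest. Globin genes resemble each other, and their single values are uncertain. Of 16 surface ectoderm genes, 11 were above 0 with a median of 0.21. Without HH15-16 replicate 1 these values were 14 and 0.36, with 8 higher at an unadjusted p under 0.05. In that fit 6.82% of all genes were higher. All pools gave 1 surface ectoderm gene higher at that limit, and the fits without another pool 0 to 1. TP63, the factor of stratifying ectoderm, was at 7.53 to 8.40 CPM at HH13-14 and at 6.44, 13.6 and 16.8 CPM at HH15-16.

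The medians of the remaining tissue lists depended on which pools of HH15-16 were in the fit. The 20 head mesenchyme genes tested had a median of -0.02, which was 0.27 without HH15-16 replicate 1 and -0.30 without replicate 3. The 23 neural tube and hindbrain genes had a median of 0.18, and then -0.21 and 0.43. For 13 skeletal muscle genes the 3 medians were -0.11, 0.01 and -0.45, for 7 melanoblast genes 0.30, -0.04 and 0.43, and for the 15 optic vesicle genes 0.88, -0.05 and 1.19. The myogenic factor MYOD1 stayed at 0.13 to 0.273 CPM in the 6 pools, and the hindbrain gene HOXB1 did not exceed 0.163 CPM. The part that the amounts of these tissues had in the genes named above was not tested.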

How the data were processed

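The authors deposited whole-number counts per gene for 18 libraries, with an identifier and, for 14248 of 30108 genes, a symbol. Reads were processed with Trim Galore, HISAT2 and featureCounts on GRCg7b, per the submitters' processing notes. Versions, use of strand, and whether reads or pairs were counted are not given in the sources used here, so overlapping, antisense and near-identical genes are uncertain. All per-sample columns were mapped to a library, with 0 left over. Coordinates are those of RefSeq's gene table of the same build, matched by symbol for 30 of 31 genes named by the rule.

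Counts of the lane 7 and lane 8 libraries of each pool, which the labels call technical replicates, were summed. They differed by a chi-square of 2.14 to 2.33 per degree of freedom, against 8.10 to 43.5 between pools of a stage. Genes were filtered with filterByExpr and scaled by the trimmed mean of M-values in edgeR 4.0.16 (R 4.3.3), and CPM values were computed from the deposited counts with the scaled library sizes. All 9 pools entered 1 quasi-likelihood fit without covariates, two-sided, with Benjamini-Hochberg adjustment over 17724 genes. The standard error (SE) is the one implied by the test statistic. The procedure was also run on simulated data, but the outcome is not reported here and is not used as support. DESeq2 1.42.0, limma 3.58.1 (voom with sample weights), DESeq2 size factors, no filter, at least 10 counts in every pool, each lane alone, the 2 stages alone, a block on the replicate number, a threshold of 0.1 for the adjusted p and leaving out each pool in turn were alternatives.

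The rule named genes with a symbol, a stage mean of 5 CPM or more where higher and pools that did not overlap. It took the 12 smallest p-values in each direction and the 6 largest folds at an unadjusted p under 0.01, which gave 31 genes. A further 42 genes could be named from the gene lists. The comparison, the 29 gene lists and the rule were chosen with earlier results of these data known, and 2 lists, of optic vesicle genes and ribosome assembly factors, were written after the values had been seen. Some genes of the lists are not reported by name here.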

Additional observations from a re-analysis of the deposited data

How the results depend on the processing

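The numbers of called genes depended on the procedure more than the fold changes did. At an adjusted p under 0.05, edgeR's 0 genes higher became 58 with DESeq2 and 0 to 2 when a pool was left out, and the 0 lower became 45 with DESeq2, 2 with voom, 2 with no filter, 1 with lane 8 alone and 0 to 1 when a pool was left out. At an adjusted p under 0.1, 2 genes were lower. The calls of voom and of no filter were LIN28A and RRS1. LIN28A was also called with lane 8 alone and without HH15-16 replicate 3, and LAMB4 and EDNRB2 without HH15-16 replicate 1. In a fit of the 2 stages without that pool, a setting chosen after the data had been seen, 14 genes were higher and 5 lower. Of these 19, DESeq2 called 6 on all pools.

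At an unadjusted p under 0.05, the genes higher numbered 1509 with voom, 1560 in the added setting and 615 to 1238 when a pool was left out. The genes lower numbered 1388, 1383 and 478 to 1187. Without overlap, genes higher numbered 1391 to 3218 and genes lower 1461 to 3221 when a pool was left out. A pool of the 2 stages left fewer pools to keep apart and gave 2084 or more and 2025 or more. The counts were 3282 and 2992 in the added setting. The lowest unadjusted counts, 615 and 478, came without HH13-14 replicate 2, and 561 genes were lower without HH13-14 replicate 1. Among fits without a pool, the highest counts came without HH15-16 replicate 1, except 1187, which came without replicate 3.

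Over 19 settings, 1325 of 1383 values of named genes kept their direction and side of the threshold, 52 newly passed it and 6 turned. When a pool was left out, EYA2 ran from -0.59 to 0.0157 and ISL1 from -0.69 to 0.193. EYA2 turned to 0.0157 without HH15-16 replicate 1 and 0.0241 in the added setting. ISL1 turned to 0.0413 with voom, 0.126 without HH13-14 replicate 3, 0.193 without HH15-16 replicate 1 and 0.201 in the added setting. The SEs exceeded each of the values that had turned, and the cause was not tested. Without HH15-16 replicate 3, where EYA2 was at -0.59 and ISL1 at -0.69, the SEs were 0.27 and 0.50. Of 589 list medians, 23 moved by more than the spread between pools.

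Over all genes tested, same-numbered pools of the 2 stages did not deviate together, with correlations of -0.063, -0.038 and 0.006. The reported fit did not pair the pools by number. Correlations over all genes cannot exclude a pairing, since one that touches few genes would hardly move them, and some ganglion genes followed the numbers. The proneural and sensory neuron list summed to 305, 346 and 414 CPM in replicates 1, 2 and 3 of HH13-14. At HH15-16 it summed to 182, 274 and 389 CPM, and at HH17-18 to 306, 367 and 553 CPM. A block on the number gave EYA2 an SE of 0.16 against 0.29, and ISL1 one of 0.29 against 0.49. With the replicate number as a block, 0 genes were called and the smallest adjusted p was 0.323. With 3 pools a stage and a spread of 24.7% at HH15-16, differences of the size seen in most lists could not be told from the spread gene by gene.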

Other observations

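Further genes that DESeq2 called, and that the rule did not name, were picked after their values had been seen, so they are a description only. FGF7, the keratinocyte growth factor of mesenchyme, was at 0.700, 0.449 and 0.390 CPM at HH13-14 and at 1.82, 2.69 and 2.33 CPM at HH15-16, with a log2 fold change of 2.14 (DESeq2 adjusted p 0.00674). ALK, the receptor kinase that sympathetic and sensory neuroblasts carry, was at 2.01, 2.95 and 1.86 CPM and then at 3.15, 4.34 and 6.40 CPM, a log2 fold change of 1.03 (DESeq2 adjusted p 0.0339). Both genes had pools that did not overlap. MXD4, which opposes MYC at its targets, was at 9.65, 7.22 and 8.68 CPM and then at 13.1, 18.8 and 12.8 CPM, a log2 fold change of 0.81 (DESeq2 adjusted p 0.0345).

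On the lower side, OTOGL, which encodes an otogelin-like protein of the inner ear, was at 3.53, 3.65 and 5.78 CPM at HH13-14 and at 1.11, 1.08 and 1.5 CPM at HH15-16. Its log2 fold change was -1.81 (DESeq2 adjusted p 7.44e-05). NOS1, the neuronal nitric oxide synthase, was at 2.83, 4.24 and 4.59 CPM and then at 1.24, 1.04 and 1.89 CPM, a log2 fold change of -1.48 (DESeq2 adjusted p 0.0408). The pools of both genes were apart, and both were lower again at HH17-18, at 0.460 to 1.02 CPM for OTOGL and 0.184 to 0.688 CPM for NOS1. ITGA4, the integrin chain that crest cells use on fibronectin, was at 139, 142 and 150 CPM and then at 105, 108 and 125 CPM, a log2 fold change of -0.35 (DESeq2 adjusted p 0.0437). PCP4, a calmodulin regulator of neurons, was at 36.7, 36.4 and 44.2 CPM and then at 17.3, 23.2 and 28.6 CPM, a log2 fold change of -0.76 (DESeq2 adjusted p 0.0298). Neither overlapped between the stages. For these 7 genes edgeR's quasi-likelihood test gave no adjusted p under 0.05.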
